A study of Homo sapiens with 12 samples.

Results

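The 10 genes described here encode Notch receptors (NOTCH1, NOTCH2 and NOTCH3), Notch ligands (JAG1, JAG2 and DLL1), the DNA-binding partner of the activated receptor (RBPJ), and repressors of the HES and HEY family (HES1, HES2 and HEY1). They were chosen by gene symbol and were 10 of 58735 genes in the count table, and each symbol was found once. The cells were TIGK, a gingival keratinocyte line immortalized by transfection with the telomerase gene hTERT, kept in 48 mM glucose in every group. The Arg groups received 500 μM L-Arginine for 24 or 48 h, and the untreated control groups were kept for the same times without it. The study's methods name a base medium without arginine for its assays, to which supplements such as pituitary extract were added. The Arg comparisons thus set added arginine against no added arginine. Each of the 4 groups had 3 libraries, named replicates A, B and C. All libraries came from this 1 line, and the labels do not say whether the replicates were separate cultures, so the p-values measure only the spread between these libraries.

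In Notch signaling, a ligand on a neighboring cell binds the receptor, proteases cut the receptor, and its intracellular part enters the nucleus. There it joins RBPJ and a Mastermind coactivator and switches on targets such as HES1. RBPJ without the receptor recruits co-repressors. In stratified epithelia, Notch signaling accompanies the move of keratinocytes from the basal to the suprabasal layers, where KRT1, KRT10 and KRT13 are made. Ligand binding and receptor cleavage were not measured here, only RNA.

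The libraries held between 16542243 and 19040964 counts. All 8 keratinocyte markers were above 1 CPM (counts scaled to library size) in every group. Endothelial, immune and melanocyte marker lists summed to at most 3.05 CPM in any library. The fibroblast list summed to 30.2 to 54.3 CPM at 24 h and 72.7 to 102 CPM at 48 h, carried by COL1A1 and DCN, while COL1A2 and COL3A1 were near 0. Control replicate B stood apart at 48 h, with a chi-square per degree of freedom of 20.9 and 23.9 against replicates A and C, where the other pairs lay between 3.66 and 12.5. Mitochondrial genes took 1.55% of its counts, against 0.906% and 0.707% in replicates A and C. The 48 h Arg libraries lay between, at 1.14%, 1.31% and 1.16%. On the first principal component, the main axis of variation among the 12 libraries (35.8%), control replicate B was at 38.6. The 48 h Arg libraries were near it, at 34.6, 33.9 and 31.7, and control replicates A and C were at 9.08 and 5.21. Why control replicate B lay near the Arg libraries on this axis was not tested. Tests of the members, keratins and pathway genes that use this library are given with it, and many of them, but not all, also without it.

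The bases upstream of HES1 and NOTCH3 are shown because HES1 is a direct target of RBPJ and NOTCH3 was the member that varied most. TGGGAA, the core of the sequence that RBPJ binds, was searched on both strands in the 250 bases before the RefSeq start site (GRCh38.p14), and its matches are in capitals. It occurs in 20.8% of 35116 such windows, and the longer GTGGGAA, which contains it, in 5.43%. The HES1 window, chr3:194135898-194136147 on the plus strand, held 2 matches, and the NOTCH3 window, chr19:15200996-15201245 on the minus strand, held 0.
HES1: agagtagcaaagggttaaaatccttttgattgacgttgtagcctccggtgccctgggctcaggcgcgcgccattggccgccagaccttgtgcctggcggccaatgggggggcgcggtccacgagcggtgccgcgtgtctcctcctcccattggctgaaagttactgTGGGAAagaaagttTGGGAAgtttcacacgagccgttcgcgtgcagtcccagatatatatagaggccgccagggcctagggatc
NOTCH3: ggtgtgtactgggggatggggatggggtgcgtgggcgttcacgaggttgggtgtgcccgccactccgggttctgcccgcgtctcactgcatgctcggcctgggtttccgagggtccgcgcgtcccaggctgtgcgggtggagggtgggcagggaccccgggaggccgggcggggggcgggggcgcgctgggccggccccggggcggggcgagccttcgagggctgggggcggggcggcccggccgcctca
The HES1 matches began 84 and 70 bases before the start site, and 1 of them was also a GTGGGAA. Windows were read for 8 of the 10 members. HEY1 was left out of the search and DLL1 had no window, so nothing is said here of their upstream bases. Among the members read besides HES1 and NOTCH3, 1 of 5 RBPJ windows held 2 matches, and those of NOTCH1, NOTCH2, JAG1, JAG2 and HES2 held 0. A match is a run of letters and not a measured binding site, and the binding of RBPJ was not measured here.

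Levels of different genes were compared per length, as CPM divided by the exonic length in kilobases (RPKM, TMM-scaled), as the mean ± SD over 12 libraries. JAG2 had the highest level, 18.0 ± 1.66 RPKM, followed by HES1 (13.6 ± 2.77) and RBPJ (12.8 ± 1.10). NOTCH1 was at 10.3 ± 2.20 RPKM, and NOTCH2 at 7.11 ± 0.536. JAG1 (5.25 ± 0.842), DLL1 (4.27 ± 0.820) and NOTCH3 (3.79 ± 3.18) came next, and the ranges of these 3 genes over the libraries overlapped. The NOTCH3 place differed by group, since its mean was 1.13 ± 0.496 RPKM in the 24 h control, where HES2 was at 1.58 ± 0.265, and 7.18 ± 0.848 RPKM in the 48 h Arg group, where JAG1 was at 5.98 ± 0.167. HES2 was at 1.45 ± 0.326 RPKM over all libraries. HEY1 was the lowest, at 0.258 ± 0.158 RPKM, and its 3 to 31 counts per library make its values the least precise. Neighbors in this order overlapped in their library ranges, except HEY1, which was below HES2 in every library. The highest library exceeded the lowest by 12.6-fold for NOTCH3 and 9.05-fold for HEY1, but by only 1.30-fold to 2.03-fold for the other 8 members. The plot of members by library shows these spreads.

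**Figure D1:**
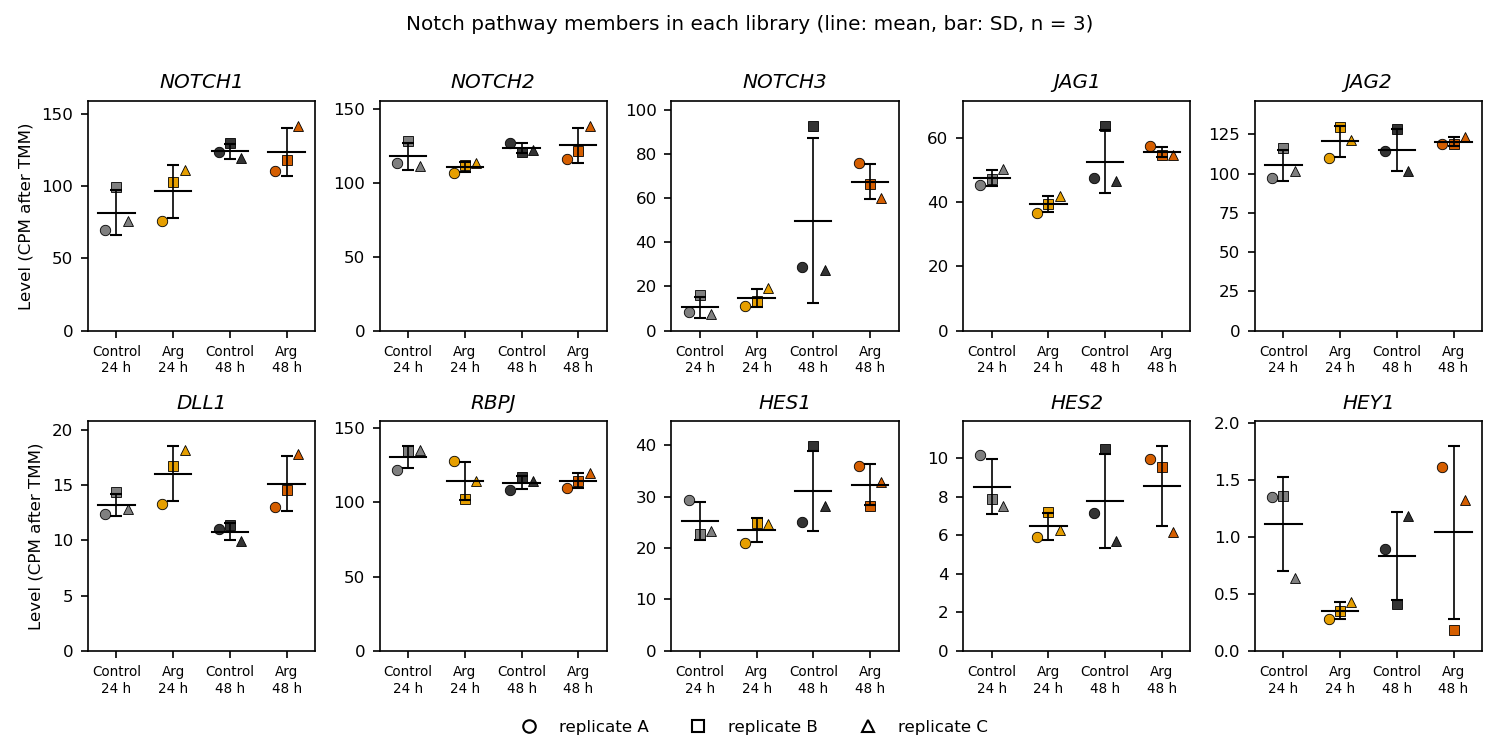
Level of each member (CPM after TMM scaling, vertical axis from 0) in control and Arg libraries at 24 and 48 h, with 1 point per library, the line at the mean and the bar at the SD (n = 3). NOTCH3 lies between 7.35 and 19.1 CPM at 24 h and between 27.5 and 92.8 CPM at 48 h, and the highest 48 h value is that of control replicate B.

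The receptors were described first. NOTCH1 (chr9:136494433-136545786, minus strand) was at 69.8, 99.6 and 75.5 CPM in the 24 h control and 75.7, 103 and 111 CPM with Arg. At 48 h it was at 123, 130 and 119 CPM in the control and 110, 118 and 142 CPM with Arg. The control libraries of the 2 times did not overlap, while Arg and control overlapped at both times. NOTCH2 (chr1:119911553-120069626, minus strand), a receptor that shares its overall structure with NOTCH1, was nearly level, at 107 to 128 CPM at 24 h and 116 to 139 CPM at 48 h. Its near copy NOTCH2NLA held 102 counts against 25979 for NOTCH2 over all libraries.

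NOTCH3 (chr19:15159038-15200981, minus strand) was at 8.44, 15.9 and 7.35 CPM in the 24 h control and 11.2, 13.4 and 19.1 CPM in the 24 h Arg group. At 48 h it was at 28.8, 92.8 and 27.5 CPM in the control and 76.0, 66.3 and 60.2 CPM with Arg. Every 48 h library was above every 24 h library. At 48 h, control replicates A and C were below all 3 Arg libraries and control replicate B was above them. NOTCH3 made up 5.32% to 8.94% of the summed RPKM of the 3 receptors in the 24 h control and 7.94% to 10.4% with Arg. At 48 h its share was 13.6%, 33.4% and 13.5% in control replicates A, B and C, and 22.6% to 31.6% with Arg. The fourth receptor gene, NOTCH4, held at most 6 counts in any library and was not tested.

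**Figure D2:**
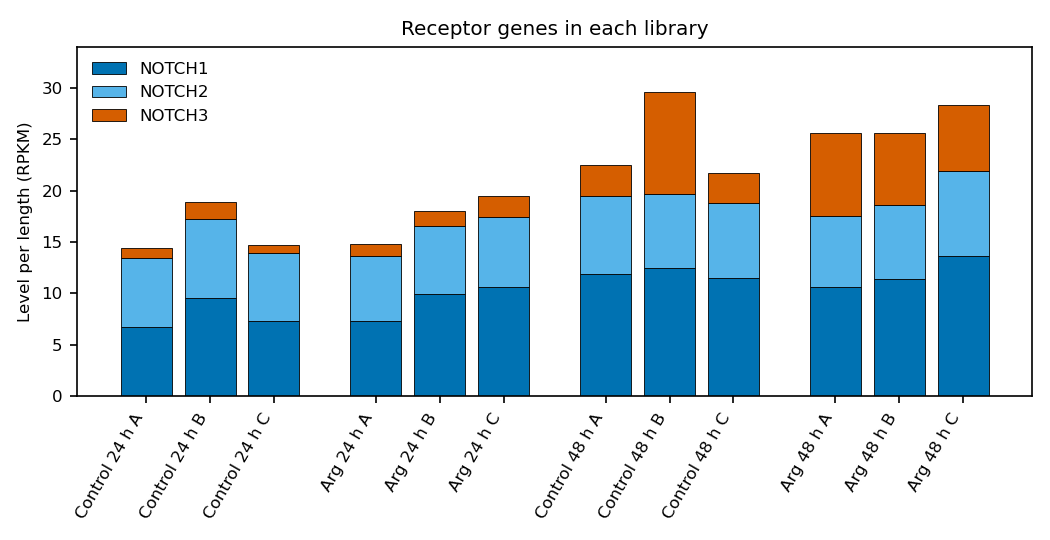
Summed level of the 3 receptor genes per library (stacked bars, RPKM, from 0), with NOTCH1, NOTCH2 and NOTCH3 in separate colors and 1 bar per library. The mean sum was 16.0 RPKM in the 24 h control, 17.4 in the 24 h Arg group, 24.6 in the 48 h control and 26.5 in the 48 h Arg group, and the tallest NOTCH3 segment is that of control replicate B at 48 h.

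Among the ligands, JAG1 (chr20:10637684-10673999, minus strand), which binds the receptors from the cell next door, was at 45.4, 47.2 and 50.3 CPM in the 24 h control and 36.8, 39.5 and 41.8 CPM with Arg. All 3 Arg libraries were below all 3 control libraries. At 48 h it was at 47.5, 63.8 and 46.5 CPM in the control and 57.4, 54.6 and 54.8 CPM with Arg. Control replicate B was again the highest library, and Arg lay between it and the other controls.

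JAG2 (chr14:105140981-105168824, minus strand), a second Jagged ligand, was at 97.5 to 130 CPM over all libraries and took between 62.9% and 68.3% of the summed RPKM of the 3 ligands. The JAG1 share was 18.3% to 21.4% in the 24 h control, 14.3% to 15.7% with Arg at 24 h, and 19.2% to 22.5% at 48 h. DLL1 (chr6:170282206-170306565, minus strand), a Delta-type ligand, was at 12.4, 14.3 and 12.9 CPM in the 24 h control and 13.2, 16.7 and 18.1 CPM with Arg. At 48 h DLL1 was at 11.0, 11.4 and 9.91 CPM in the control and 13.0, 14.6 and 17.8 CPM with Arg. All Arg libraries were above all control libraries at 48 h and overlapped with them at 24 h. DLL1 overlaps FAM120B on the opposite strand, which held 6269 counts against 2985 for DLL1, and the strand setting of the counting is not given in the sources used here, so the DLL1 values are uncertain.

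RBPJ (chr4:26163455-26435131, plus strand) was at 122, 134 and 135 CPM in the 24 h control and 128, 102 and 114 CPM with Arg, and all 48 h libraries were between 108 and 120 CPM. HES1 (chr3:194136145-194138732, plus strand), the repressor whose upstream bases are shown above, was at 29.4, 22.7 and 23.4 CPM in the 24 h control and 20.9, 24.9 and 24.7 CPM with Arg. At 48 h HES1 was at 25.1, 39.8 and 28.2 CPM in the control and 35.9, 28.1 and 32.9 CPM with Arg. As for JAG1, control replicate B was the highest HES1 library. HES2 (chr1:6412418-6424670, minus strand), a related repressor, was at 10.2, 7.90 and 7.52 CPM in the 24 h control and 5.89, 7.22 and 6.28 CPM with Arg. At 48 h HES2 was at 7.18, 10.5 and 5.73 CPM in the control and 9.95, 9.58 and 6.16 CPM with Arg. HEY1 (chr8:79764010-79767863, minus strand), a Hairy-related repressor, had 25, 24 and 11 counts in the 24 h control and 5, 6 and 8 with Arg. At 48 h HEY1 had 17, 8 and 22 counts in the control and 31, 3 and 23 with Arg. Both HES2 and HEY1 were lower in all 24 h Arg libraries than in all 24 h controls and overlapped at 48 h.

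The first comparison asked which genes differed between Arg and control after 24 h. With edgeR's quasi-likelihood test and Benjamini-Hochberg adjustment over 14279 genes, 6.63% of all genes passed an adjusted p of 0.05, and 0 of the 10 members did. DESeq2 also passed 0 members. At an unadjusted p under 0.05, where 22.8% of all genes fell, JAG2 was higher and JAG1, HES2 and HEY1 were lower. JAG1, HES2 and HEY1 were the 3 members with no overlap between the groups, all lower, where 26.2% of all genes had no overlap and 13.4% were lower in that way. JAG1 differed by a log2 fold change of -0.28 (SE 0.0937, adjusted p = 0.0863 by edgeR), and HEY1 by -1.64 (SE 0.516, adjusted p = 0.0652 by edgeR). HES2 differed by -0.40 on the log2 scale (SE 0.184, adjusted p = 0.200 by edgeR). The smallest p that exact permutation of 3 and 3 libraries allows for any 1 gene is 0.1.

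NOTCH3 had a log2 fold change of 0.46 at 24 h (SE 0.239, adjusted p = 0.262 by edgeR), and control replicate B was its highest control library. Without 24 h control replicate B, where 1529 of 14645 genes passed (10.4%, beside 6.63% with all libraries), NOTCH3 passed at 0.88 (adjusted p = 0.00841 by edgeR) and NOTCH1 at 0.40 (adjusted p = 0.0394 by edgeR, from 0.24 with all libraries). Leaving out any other 24 h library passed neither of these genes. Over all 6 such fits, NOTCH3 ran from 0.22 to 0.88 and NOTCH1 from 0.13 to 0.40. With all libraries, the median log2 fold change was -0.10 over the 10 members and 0.003 over all genes.

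The same comparison was made at 48 h. There, 0.117% of 14562 genes passed, all 17 of them lower with Arg, and 0 of the 10 members did. At an unadjusted p under 0.05, where 13.4% of all genes fell, DLL1 was the only member, with a log2 fold change of 0.48 (SE 0.147, adjusted p = 0.205 by edgeR). DLL1 was also the 1 member without overlap, where 17.1% of all genes had none and 8.56% were higher in that way. NOTCH3 had a log2 fold change of 0.44 with a 95% interval from -0.32 to 1.19 (adjusted p = 0.619 by edgeR). With no filter on low counts, where 573 of 27248 genes passed, NOTCH3 passed with the same log2 fold change (adjusted p = 0.000257 by edgeR). Among the 7 alternative settings with all libraries kept, this was the only 1 in which it passed.

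Without control replicate B, 15.9% of 14854 genes passed at 48 h, and 3 of the 10 members rose. NOTCH3 was then higher with Arg by 1.26 on the log2 scale (SE 0.0951, adjusted p = 2.81e-09 by edgeR). DLL1 was higher by 0.53 (adjusted p = 0.0169 by edgeR) and JAG1 by 0.24 (adjusted p = 0.0318 by edgeR). HES1 was at 0.28 and did not pass (adjusted p = 0.0819 by edgeR). The control group then had 2 libraries, and leaving out any other 48 h library passed 0 members, with NOTCH3 between 0.15 and 1.26 over all 6 such fits. The plot of Arg against control shows these values side by side.

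**Figure D3:**
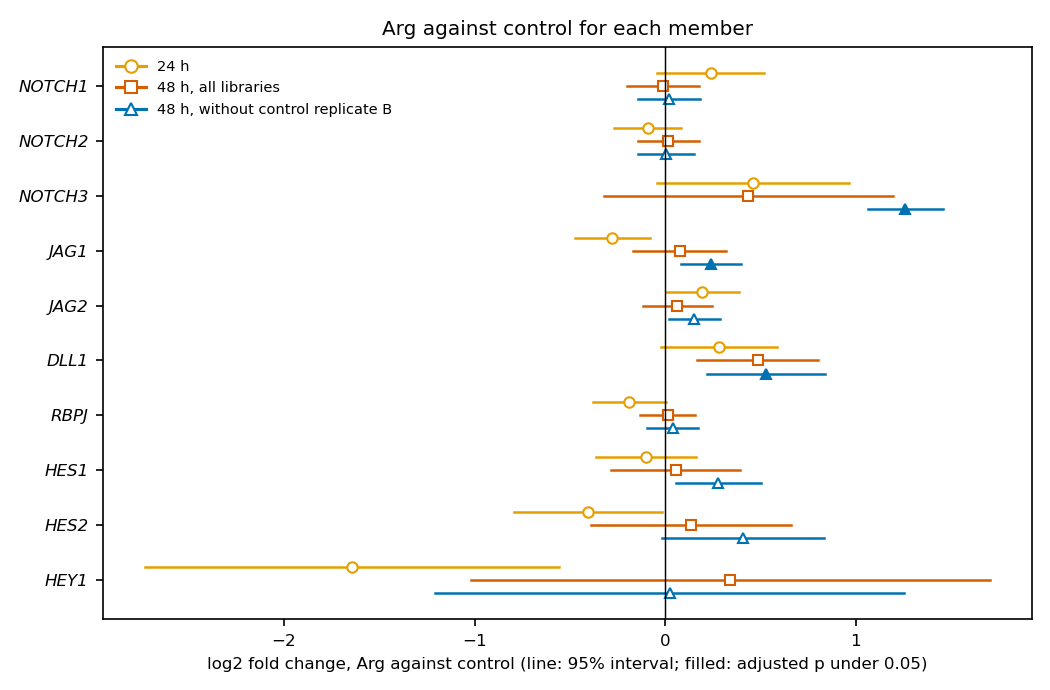
Log2 fold change of Arg against control for each member (horizontal axis), with lines for the 95% interval, at 24 h, at 48 h, and at 48 h without control replicate B. Filled symbols have an adjusted p under 0.05, and they are NOTCH3, JAG1 and DLL1, all in the fit without control replicate B.

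The time comparisons asked how the members differed between 48 and 24 h within each treatment. In the control, 2 of the 10 members rose and 0 fell, where 19.9% of 14449 genes passed and 9.90% were higher. NOTCH3 rose 4.72-fold (log2 fold change 2.24, SE 0.435, adjusted p = 0.00609 by edgeR) and NOTCH1 rose 1.52-fold (0.61, SE 0.117, adjusted p = 0.00592 by edgeR). Without control replicate B at 48 h, where 16.4% of genes passed, NOTCH3 was higher by 1.42 (adjusted p = 0.00156 by edgeR) and NOTCH1 by 0.57 (adjusted p = 0.00607 by edgeR). Without overlap between the times, NOTCH1 and NOTCH3 were higher and DLL1 and RBPJ lower, where 39.0% of all genes had none, 19.2% higher and 19.7% lower. RBPJ differed by -0.20 (SE 0.0774, adjusted p = 0.0889 by edgeR) and DLL1 by -0.29 (SE 0.141, adjusted p = 0.170 by edgeR).

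With Arg, 4 of the 9 members tested rose from 24 to 48 h and 0 fell, where 28.3% of 14398 genes passed and 14.3% were higher. HEY1 was removed by the filter on low counts in this comparison. NOTCH3 rose 4.63-fold (log2 fold change 2.21, SE 0.141, adjusted p = 6.32e-09 by edgeR). JAG1 rose 1.41-fold (0.50, SE 0.0844, adjusted p = 0.000187 by edgeR), HES1 rose 1.38-fold (0.46, SE 0.111, adjusted p = 0.00381 by edgeR) and NOTCH1 rose 1.28-fold (0.35, SE 0.112, adjusted p = 0.0227 by edgeR). The 4 members without overlap, all higher, were NOTCH2, NOTCH3, JAG1 and HES1, where 42.2% of all genes had none and 21.1% were higher in that way. NOTCH1 did not pass with DESeq2 (adjusted p = 0.167), with all 12 libraries in 1 edgeR model (0.0566), without 24 h Arg replicate A (0.0906) or without 48 h Arg replicate C (0.151).

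Whether the Arg difference itself differed between 24 and 48 h was tested as an interaction over all 12 libraries. Of 15148 genes, 0.0132% passed by edgeR, and 0 of the 10 members did, also with DESeq2. At an unadjusted p under 0.05, where 6.87% of all genes fell, were JAG1, with an interaction of 0.35 on the log2 scale (SE 0.149, adjusted p = 0.671 by edgeR), and HEY1, with 1.98 (SE 0.866, adjusted p = 0.705 by edgeR). The NOTCH3 interaction was -0.02 with a 95% interval from -1.05 to 1.00. Without control replicate B at 48 h, where 0.297% of genes passed and 0 of the members did, it was 0.79 (adjusted p = 0.328 by edgeR), and that of JAG1 was 0.52 (adjusted p = 0.0804 by edgeR). The rise of JAG1 and HES1 with time passed in Arg and not in the control, and the interaction test did not show these rises to differ.

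The rise of NOTCH3 was set beside the suprabasal marker list. From 24 to 48 h, KRT1, KRT10 and KRT13 were higher by 1.28, 1.53 and 1.48 on the log2 scale in the control and by 1.39, 1.82 and 1.49 with Arg, and each passed an adjusted p of 0.05 by edgeR. The control values were 0.80, 0.91 and 0.94 without control replicate B at 48 h, and still passed. KRT4, of the same list, was higher by 1.76 in the control and 1.87 with Arg and passed, also without that library (1.52). IVL (0.35 and 0.15) and FLG (0.47 and 0.29) did not pass, and LOR held at most 0.465 CPM. The keratinocyte marker TP63 was higher by 0.42 (adjusted p = 0.0362 by edgeR) and 0.34 (adjusted p = 0.00243 by edgeR). In the control without that library, TP63 was at 0.31 (adjusted p = 0.0819 by edgeR). Of the other keratinocyte markers, KRT16 (0.96 and 1.14) and CDH1 (0.28 and 0.26) were higher and passed, also without that library (0.76 and 0.24). EPCAM was at -0.02 in the control and fell by 0.19 with Arg (adjusted p = 0.0424 by edgeR). KRT5, KRT14, KRT6A and ITGB4 did not pass in either treatment. At 48 h, KRT13 was at 1525, 3455 and 1430.2 CPM in control replicates A, B and C and at 3011, 2812 and 2909 CPM with Arg. KRT10 was at 395, 965 and 345 CPM in the 48 h control and 1109, 694 and 517 CPM with Arg, and KRT1 at 58.8, 114 and 45.5 CPM and 135, 99.9 and 77.7 CPM. For KRT1, KRT10, KRT13 and NOTCH3, control replicates A and C were below the 3 Arg libraries. Between Arg and control at 48 h, KRT1, KRT10 and KRT13 were at 0.52, 0.44 and 0.44 on the log2 scale and did not pass. Without control replicate B, where 15.9% of all genes passed, they were at 1.00, 1.07 and 0.98. They then passed (adjusted p = 4.20e-05, 0.000150 and 5.03e-12 by edgeR). KRT4 was at -0.11 on the log2 scale (adjusted p = 0.848 by edgeR), and at 0.14 without control replicate B (adjusted p = 0.621 by edgeR). IVL and FLG did not pass in either fit. Control replicate B was above all Arg libraries for NOTCH3 and KRT13, and was below Arg replicate A for KRT1 and KRT10. The summed suprabasal list, of which KRT13 was the main part, was at 764 to 1325 CPM in the 24 h control and 1028 to 1605 CPM with Arg, and at 48 h it was at 1996, 4558 and 1836 CPM in control replicates A, B and C and 3526 to 4272 CPM with Arg. In bulk RNA, more suprabasal cells and more RNA per cell cannot be told apart, and the part of either in the NOTCH3 values was not tested.

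The 3 genes whose log2 CPM followed NOTCH3 most closely over the 12 libraries were ARID5B, a transcription cofactor (Pearson r = 0.995), ANK3, a membrane-skeleton adaptor (0.995), and PARP14, an ADP-ribosyltransferase (0.994), among 15147 genes. Without control replicate B at 48 h, these were 0.994, 0.994 and 0.993, and over deviations from the group means they were 0.975, 0.975 and 0.967. ARID5B was at 56.3, 83.3 and 55.7 CPM in the 48 h control and 75.1, 77.3 and 71.9 CPM with Arg. For JAG1, the closest were MACROD1 (0.956), PRRG1 (0.946) and SH3BGRL (0.939). For HES1, they were NFASC (0.932), DLX2 (0.931) and TMEM189 (0.909), and for NOTCH1, SLC9A3R1 (0.967), SHMT1 (0.965) and MYO18A (0.963). Without control replicate B at 48 h, these were 0.939, 0.923 and 0.923 for JAG1, 0.898, 0.914 and 0.857 for HES1, and 0.966, 0.964 and 0.965 for NOTCH1. Among the members, the closest pair was NOTCH1 and NOTCH3 (0.835, and 0.823 without that library), followed by JAG1 and HES1 (0.817 and 0.729). Without that library, NOTCH1 and NOTCH2 came second instead (0.745, and 0.730 with all libraries). These coefficients are descriptions over the same 12 libraries in 4 groups, and only the highest among all genes compared are named.

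**Figure D4:**
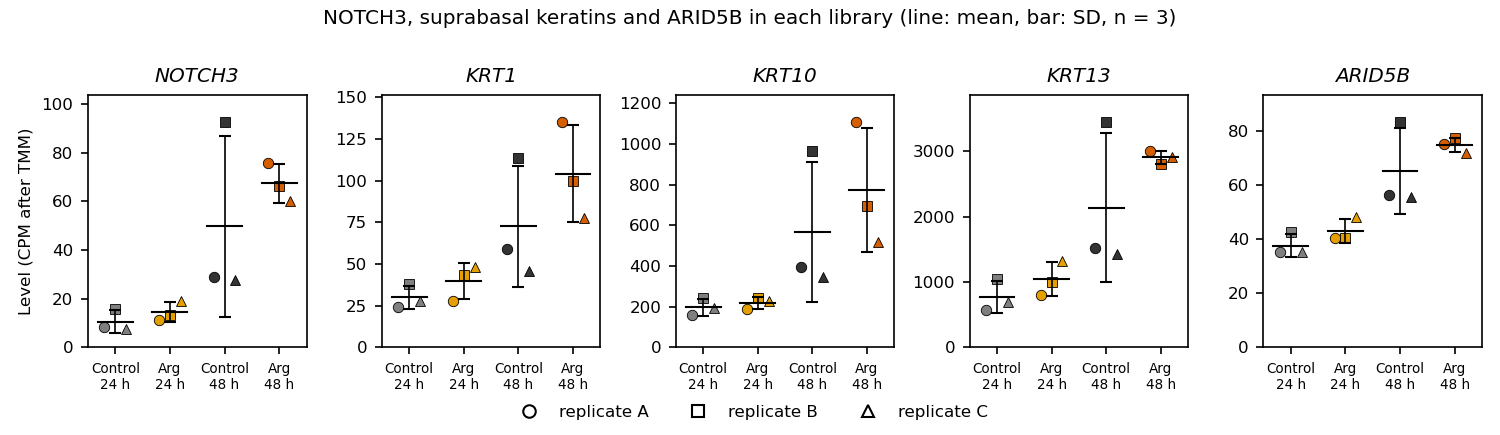
Level (CPM after TMM scaling, vertical axis from 0) of NOTCH3, of the suprabasal keratins KRT1, KRT10 and KRT13, and of ARID5B in each library, with the line at the mean and the bar at the SD (n = 3). In the 48 h control, replicate B is the highest library for all 5 genes, with NOTCH3 at 92.8 CPM against 28.8 and 27.5 in replicates A and C.

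The members were then read within 73 genes of the pathway, of which 68 were tested in the Arg comparisons. At 24 h, 0 of the 68 rose and 4 fell with Arg (5.88%, beside 6.63% of all genes). The Delta-type ligand DLL3 fell by 0.64 on the log2 scale (adjusted p = 0.00774 by edgeR), from 19.0 ± 2.26 CPM in the control (SD, n = 3) to 12.3 ± 0.254 CPM. DLL4, another Delta-type ligand, fell by 1.71 (adjusted p = 0.0364 by edgeR), on 51, 19 and 39 counts in the control and 8, 17 and 8 with Arg. HES6, a HES family member that opposes HES1, fell by 0.60 (adjusted p = 0.00981 by edgeR), from 37.4, 26.1 and 35.7 CPM to 20.2, 23.1 and 22.3 CPM. HES7, a repressor known from the segmentation clock, fell by 1.22 (adjusted p = 0.0122 by edgeR), from 11.9, 6.88 and 5.96 CPM to 4.32, 4.01 and 2.31 CPM. Those that fell were 2 of 5 ligands and 2 of 8 tested HES and HEY repressors, where 549 of all 14279 genes fell. Of the receptors, proteases, nuclear cofactors or co-repressors, 0 passed. The roles hold too few genes to read a pattern by role from these counts. The count was 0 without 24 h control replicate A, 8 without control replicate B and 2 without Arg replicate C. In these fits, 359 of 14661, 1529 of 14645 and 381 of 14653 genes passed over all genes.

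At 48 h, 0 of the 68 passed by edgeR in either direction, beside 0.117% of all genes. At an unadjusted p under 0.05 there were 7 of the 68, beside 13.4% of all genes. Without control replicate B, 11 rose and 5 fell (23.5%, beside 15.9% of all genes). Beside NOTCH3, those with the smallest p among the 11 were EP300, a histone acetyltransferase, higher by 0.42 (adjusted p = 0.000621 by edgeR), FBXW7, which marks the cleaved receptor for degradation, by 0.53 (adjusted p = 0.000858 by edgeR), HES4, a HES family repressor, by 0.80 (adjusted p = 0.00118 by edgeR), and KDM5A, a histone demethylase, by 0.34 (adjusted p = 0.00264 by edgeR). Of the 5 that fell, HES7 fell by 1.73 (adjusted p = 0.000900 by edgeR), DLL3 by 0.63 (adjusted p = 0.00342 by edgeR) and HES6 by 0.43 (adjusted p = 0.0245 by edgeR). MIB2, a ubiquitin ligase for ligands, and DLK2, a Delta-like protein, also fell, by 0.29 and 0.30. Genes on the opposite strand overlap KDM5A (CCDC77, 2618 counts against 13076) and DLK2 (ABCC10, 4840 against 22340). The same holds for CTBP2, named below (ZRANB1, 5635 against 25943). The limit given for DLL1 applies to these genes too. It also applies to other list genes that overlap a gene on the opposite strand, and the counts of list genes include them. Among them are NCOR1 (TTC19, 9245 against 19881), MAML3 (MGST2, 4999 against 484), SNW1 (SLIRP, 17340 against 20836) and ADAM17 (IAH1, 6885 against 9869).

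Over time, 12 of the 68 rose and 6 fell in the control, and 23 of 67 rose and 8 fell with Arg (26.5% and 46.3%, beside 19.9% and 28.3% of all genes). In the control, 11 rose and 6 fell without replicate B at 48 h (25.0%, beside 16.4%). Of the 15 RBPJ co-repressors tested, 5 rose and 2 fell (CTBP2 and HDAC2) in the control, and 8 rose and 1 fell (CTBP2) with Arg, where 9.90% and 14.3% of all genes rose. The next genes were chosen after their values were seen. SPEN, a corepressor that binds RBPJ directly, was higher at 48 h by 0.45 on the log2 scale in the control (adjusted p = 0.00761 by edgeR) and by 0.62 with Arg (adjusted p = 5.23e-05 by edgeR). MAML2, a Mastermind coactivator, was higher by 0.80 (adjusted p = 0.0113 by edgeR) and 0.42 (adjusted p = 0.0176 by edgeR). HES6 fell by 0.79 in the control and by 0.46 with Arg, and HES7 by 1.32 and 1.43. When 48 h replicate B was left out, the control values were 0.40 for SPEN, 0.66 for MAML2, -0.63 for HES6 and -0.92 for HES7, and each still passed. From 24 to 48 h in Arg, HES6 and HES7 fell while HES1 and HES4 rose, so the HES family held members that moved in each direction. The plot of the lists by role shows the spread within each.

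**Figure D5:**
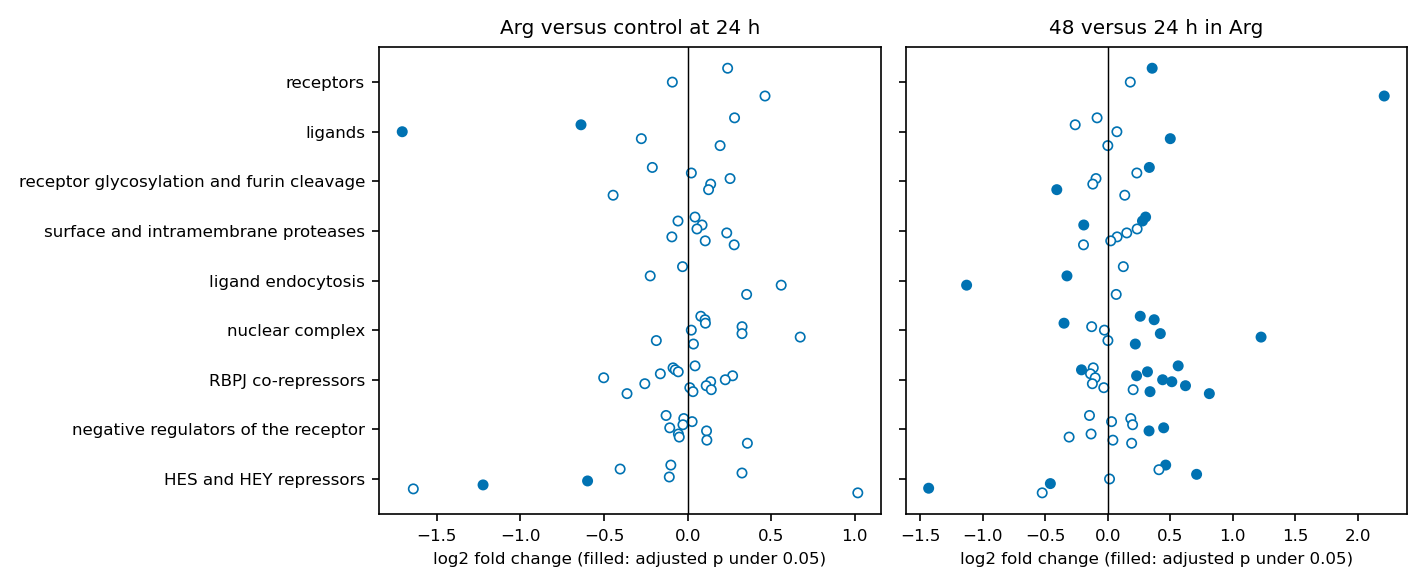
Log2 fold change (horizontal axis) of the tested genes of the 73-gene pathway list, by role, for Arg against control at 24 h and for 48 against 24 h in Arg, with filled points at an adjusted p under 0.05. At 24 h, the 4 filled points are 2 ligands and 2 HES and HEY repressors, all lower with Arg, and over time in Arg 23 genes are higher and 8 lower.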

How the data were processed

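RNA sequencing data of TIGK cells were used, with 12 libraries in 4 groups of 3 that were assigned from the sample labels. The authors deposited raw gene counts, with gene coordinates and exonic lengths, and did not normalize them. The submitters' processing notes name fastp, STAR, featureCounts and GRCh38/hg38, and the sources used here give no tool version, annotation release or strand setting. From the counts, each comparison was tested with edgeR 4.0.16 in R 4.3.3 (TMM, edgeR's filter on low counts, quasi-likelihood test, only the groups compared, no block), and p-values were adjusted by Benjamini-Hochberg over all tested genes. CPM and RPKM used library sizes scaled by TMM over 12 libraries, and correlations used log2 CPM with a prior count of 2. The script was tested on simulated data. The block used the replicate letters, which the labels do not tie to a shared culture or day. The members and the gene lists were chosen with earlier results of these data known. The text names the 10 members, other list genes that passed in an Arg comparison (at most 5 per direction), and the 3 closest genes of members described in full. Alternatives were DESeq2 1.42.0, other scalings and filters, a replicate block, a model of all libraries, and leaving out each library.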

Additional observations from a re-analysis of the deposited data

How the results depend on the processing

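NOTCH3 and NOTCH1 between 48 and 24 h in the control, and NOTCH3, JAG1 and HES1 between 48 and 24 h in Arg, kept their direction and passed in every alternative run. NOTCH2 passed between 48 and 24 h in Arg with library size alone as the scaling (0.24, adjusted p = 0.0247 by edgeR), and HES2 did without 48 h Arg replicate C (0.60, adjusted p = 0.0256 by edgeR). Genes passing at 48 h between Arg and control numbered 17, against 167 with DESeq2, 573 unfiltered, 41 when all 12 libraries shared 1 model and 184 with the replicate block. Those passing in the interaction numbered 2, against 15 with DESeq2 and 88 unfiltered. The pathway list had 4 genes passing at 24 h and 2 with all 12 libraries in 1 model, and at 48 h it had 0, and 4 unfiltered. With library size alone as the scaling, the genes that passed over time split into 1845 higher and 1008 lower in the control (1431 and 1451 with TMM) and 2568 and 1453 in Arg (2060 and 2012). The cause of these shifts was not tested.

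From 24 to 48 h in Arg, JAG2 was at -0.000496 with DESeq2 and -0.000667 with all 12 libraries in 1 model, and RBPJ at -0.000229 with DESeq2. The deviations of same-lettered replicates had correlations from -0.0615 to 0.0379, and 0.135 for replicate B in the control over time. With 3 libraries per group, these cannot decide whether the letters mark a pairing. Genes passing over time in the control numbered 2882, and 4044 with the replicate block. They numbered 4072 and 3779 over time in Arg, and 947 and 924 between Arg and control at 24 h. With the replicate block, the NOTCH3 interaction was 0.0706, RBPJ in the control over time passed at -0.20 (adjusted p = 0.0377 by edgeR), and no other member changed its call.

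Leaving out 1 library at a time gave 359 to 1529 passing genes at 24 h, 6 to 2365 at 48 h, 828 to 3304 over time in the control, 2938 to 3669 over time in Arg and 0 to 46 in the interaction, and 0 to 8 and 0 to 16 passing list genes at 24 and 48 h. The highest values at 48 h and in the interaction came without control replicate B at 48 h, and the highest at 24 h and in the control over time came without control replicate B at 24 h. Members whose log2 fold change crossed 0 in these fits were, for Arg at 24 h, HES1 (-0.17 to 0.0258). For Arg at 48 h they were NOTCH1 (-0.12 to 0.0606), NOTCH2 (-0.0587 to 0.0679), JAG1 (-0.00657 to 0.24), JAG2 (-0.0171 to 0.15), HES1 (-0.0767 to 0.28), HES2 (-0.0465 to 0.41), HEY1 (-0.14 to 0.83) and RBPJ (-0.018 to 0.042). Over time they were JAG1 (-0.0168 to 0.23) and HES2 (-0.40 to 0.0489) in the control and JAG2 (-0.0645 to 0.0576), DLL1 (-0.22 to 0.014) and RBPJ (-0.0759 to 0.0826) in Arg. The NOTCH3 interaction ran from -0.43 to 0.79. The low counts of HEY1 limit what can be read from it.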
